A study of Homo sapiens with 9 samples.

Results

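The 45 genes described here encode proteins that carry a cell through mitosis and cytokinesis, and they were chosen by symbol from the 14839 genes with values. All 45 symbols were found. MP41 cells, a uveal melanoma (UM) line, were transfected with synthetic miR-16 or with a control mimic, miR-CTR, at 66 nM, and polyA RNA was sequenced. Cells were collected before transfection (0 h, a library counted with the miR-CTR series) and at 6, 12, 24, and 48 h with either mimic, which made 9 libraries of this line with 1 library per condition. No condition had a replicate, so conditions were not tested against each other, and the errors given below are counting errors from the reads alone.

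Entry into mitosis is driven by CDK1 bound to cyclin B, which the CDC25 phosphatases switch on and the kinase WEE1 holds back. The spindle checkpoint then keeps the anaphase-promoting complex (APC/C), a ubiquitin ligase, from acting until every kinetochore holds microtubules, and the contractile ring finally cuts the cell apart. Transcripts of most of these genes peak in G2 and M phase, so that their levels in a culture are widely read as a measure of how many cells divide. In RNA of whole cultures, fewer cells in G2 and M and less RNA per cell cannot be told apart.

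With miR-16, the median of the mitosis and cytokinesis genes stood close to miR-CTR at 6 and 12 h and slightly lower at 24 h. Single genes lay to either side of miR-CTR at 6 and 12 h. At 48 h 44 of 45 genes were lower. The median log2 fold change (logFC, the miR-16 value minus the miR-CTR value of the same time) of the 45 genes at 6, 12, 24, and 48 h was −0.01, −0.01, −0.21, and −0.74, the last a level of 0.599 of the control. The median over all 14839 genes was 0.00 at each of these times, and 7338 of them were lower at 48 h. In the late window, the mean of 24 and 48 h, 20 of 45 genes had a logFC below −0.5 and 0 had one above 0.5, against 5.73% and 7.76% of all genes. The late count rested on the 48 h libraries, since 2 genes were below −0.5 at 24 h alone (5.26% of all genes) and 37 were at 48 h alone (8.96%). The median late logFC of the 45 genes was −0.495. ANLN (anillin) had the lowest late logFC, and CCNA2 (cyclin A2) the highest.

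The sequences that bear on these transcripts are those of the mimics and of the stretches of the transcripts that match them. A microRNA pairs with its targets mainly through its seed, bases 2 to 8 from the 5′ end, shown in capitals. The miR-16 sequence is that of RefSeq (GRCh38.p14), where it is encoded at chr13:50049027-50049048 (reverse strand) and chr3:160404754-160404775 (forward strand). The control sequence is a designed oligo listed among the study's biotinylated RNAs. There the names of the 2 RNAs stand the other way round from RefSeq, they were taken as swapped, and the transfected miR-CTR was assumed to have the same sequence, which the sources used here do not state.
miR-16-5p: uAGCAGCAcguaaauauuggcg
control sequence: uUGUACUAcacaaaaguacug

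A seed match was an exact copy of TGCTGCT (the 7mer-m8 site), of GCTGCTA (the 7mer-A1 site), or of both together (the 8mer site) in the longest 3′UTR of GENCODE version 29. Of the 45 genes, 8 had one (17.8%), against 29.2% of the 11570 protein-coding genes with values and a 3′UTR. The 8mer was found in 0 of the 45 genes and in 5.0% of the 11570. The 8 genes were CDC25B, CDC25C, BUB3, CDC27, INCENP, BIRC5, ANLN, and RACGAP1. Of these, INCENP held the most matches, and CDC27 and RACGAP1 each held more than a single match. The median late logFC of the 8 genes was −0.49, and that of the other 37 genes was −0.495. Over the 11570 genes the late medians were −0.085 with and 0.015 without a match. The match in ANLN is shown, in capitals, because this gene fell furthest.
ANLN, 7mer-A1, chr7:36453399-36453428, forward strand: actgttatgaaGCTGCTAtgtactaataat

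For the control sequence the same definition gave TAGTACA as the 7mer-m8 and AGTACAA as the 7mer-A1. Matches lay in the 3′UTR of 4 of the 45 genes (8.9%), CCNA2, NEK2, TOP2A, and RACGAP1, against 14.7% of the 11570 genes. CCNA2, NEK2, and TOP2A were also the 3 members with the highest logFC, in the early (6 and 12 h) and in the late window. The median late logFC of the 4 genes was −0.035, and without such a match it was −0.50. With 6mers (AGTACA) counted too, 8 genes had a match, and the medians were −0.38 and −0.50. RACGAP1, with matches to both mimics, had a late logFC of −0.455 ± 0.030 (counting SE). Over the 11570 genes the late median was 0.045 with and −0.02 without a match, and 0.02 and −0.02 with 6mers counted too. Matches were searched after earlier results of these data were known, and their part in the values was not tested.
CCNA2, 7mer-A1, chr4:121817505-121817534, reverse strand: agttgtggccaAGTACAAattatggtatct
NEK2, 7mer-m8, chr1:211663293-211663322, reverse strand: gcctttctgtaTAGTACAcatgatatttcg
TOP2A, 8mer, chr17:40389388-40389417, reverse strand: gaaggtgttttTAGTACAAgacatcaaagt
TOP2A, 7mer-m8, chr17:40389025-40389054, reverse strand: ctttatggttcTAGTACAgatactctacta

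The 9 libraries held between 20290000 and 27380000 reads, a ratio of 1.35, as recovered from the deposited values, and a member had between 393 (CDC25C) and 11375 reads (TOP2A) at 0 h. The median counting SE of a member's late logFC was 0.032. All 7 melanocyte markers were expressed, with log2 values at 0 h between 12.29 (DCT) and 17.88 (TYRP1), and their late logFC lay between −0.095 and 0.19. Of 17 markers of fibroblasts, endothelium, leukocytes, and epithelium, 3 had values, COL1A1 (8.31 at 0 h), LUM (6.94), and CD68 (5.48). Their late logFC were 0.04 ± 0.077, −0.81 ± 0.095, and −0.075 ± 0.196. LUM, a matrix protein of fibroblasts, thus moved with the members, at −0.64 at 24 h and −0.98 at 48 h, and it stood 1.63 above 0 h at 48 h with miR-CTR and 0.65 above it with miR-16. Its part in the members' values was not tested. The other 14 markers were not among the 14839 genes with values. With MITF and SOX10 at 13.28 and 13.33, the melanocytic markers of a uveal melanoma line were present at 0 h.

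The plot of the changes from 0 h sets the course of the 45 genes with either mimic side by side. Since both courses share the 0 h library, they are not independent. At 6 h, the transcripts stood above 0 h with either mimic, by a median of 0.26 with miR-CTR and 0.21 with miR-16. Higher were 39 and 35 of the 45 genes, against 7410 and 7552 of all 14839 genes. Past 0.5 were 6 of the 45 genes with miR-CTR (3.53% of all genes) and 7 with miR-16 (4.62%). At 12 h the medians were 0.04 and 0.00. They then parted, to −0.19 and −0.26 with miR-CTR and to −0.35 and −0.97 with miR-16 at 24 and 48 h.

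In the 48 h miR-16 library every one of the 45 genes lay below 0 h, as did 7416 of all 14839 genes. By more than 0.5 lay 41 of the 45, against 16.2% of all genes, and the median member had 0.511 of its level at 0 h. With miR-CTR at 48 h, 38 of the 45 genes and 7437 of all genes lay below 0 h. Of the 45, 3 did so by more than 0.5 (13.9% of all genes). The late means passed −0.5 in 33 genes with miR-16 (11.7% of all genes) and in 2 genes with miR-CTR (9.79%), CCNA2 and TOP2A. INCENP was the 1 gene above 0.5 with miR-CTR, where 11.0% of all genes were. The 48 h miR-16 library was the lowest of all 9 for 44 of the 45 genes, the exception being CCNA2, whereas it was the lowest for 22.2% of all genes. For 30 genes both late miR-16 libraries lay below all 5 libraries without miR-16 (14.4% of all genes). A fall at each step from 6 to 48 h was seen in 38 genes with miR-16 (17.3% of all genes) and in 26 genes with miR-CTR (16.7%).

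**Figure D1:**
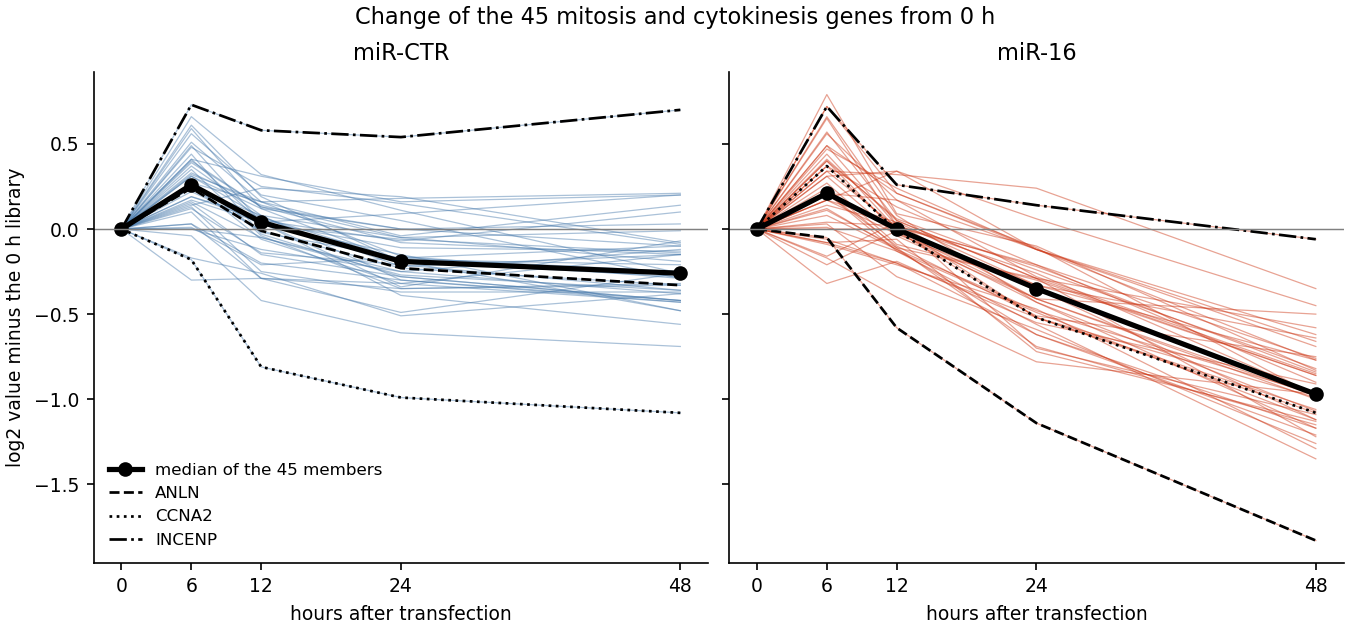
Change of each of the 45 genes from the 0 h library, as a difference of log2 values, against the hours after transfection with miR-CTR (left) and miR-16 (right). Thin lines are single genes, the thick line with points is their median, and ANLN, CCNA2, and INCENP are drawn in black. The medians are close until 12 h and reach −0.26 with miR-CTR and −0.97 with miR-16 at 48 h.

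Among the cyclins, CDK1, its subunits, and its phosphatases, 1 of 8 genes passed −0.5 late (5.73% of all genes). At 48 h 5 of 8 did (8.96%). CDK1, the kinase itself, fell furthest of them, with normalised log2 values of 11.64 at 0 h, 11.80, 11.59, 11.39 and 11.52 in the miR-CTR libraries, and 11.72, 11.52, 11.02 and 10.43 in the miR-16 libraries at 6, 12, 24, and 48 h (the order kept for all genes). Up to 12 h the 2 mimics lay within 0.08 of each other, and at 48 h the miR-16 library was the lowest of the 9. Its late logFC was −0.73 ± 0.032, and its 48 h logFC of −1.09 is a level of 0.47 of the control.

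Cyclin A2 (CCNA2), which partners CDK2 in S phase and CDK1 in G2, took another course. Its values were 11.60 at 0 h, 11.42, 10.79, 10.61 and 10.52 in the miR-CTR libraries, and 11.97, 11.59, 11.08 and 10.52 in the miR-16 libraries. It was the 1 member past 0.5 at 6 h, with a logFC of 0.55, and at 12 h, with 0.80, where 3.38% and 3.31% of all genes passed. The change from 0 to 12 h was −0.81 with miR-CTR and −0.01 with miR-16. At 48 h both libraries stood at 10.52, so that the late logFC was 0.235 ± 0.036. Relative to 0 h, the late means fell by 1.035 with miR-CTR and by 0.80 with miR-16.

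Cyclins B1 and B2 (CCNB1 and CCNB2), the activators of CDK1 at the entry into mitosis, had late logFC of −0.205 and −0.29, with 0.02 and −0.04 at 24 h against −0.43 and −0.54 at 48 h. CKS1B and CKS2, small subunits that bind CDK1, had −0.31 and −0.22. For CKS2 the logFC was 0.28 at 12 h and −0.35 at 48 h. GENCODE lists 6 pseudogenes named after CKS1B, so that its reads may have been split. The phosphatases CDC25B and CDC25C had −0.47 and −0.39, and CDC25C was the least expressed member per length, at 5.34 reads per kilobase of exon and 1000000 reads (RPKM) at 0 h, with CKS2 at the top at 188.07.

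Of the 5 mitotic kinases, 3 passed −0.5 late (5.73% of all genes) and 4 did at 48 h (8.96%). TTK, the checkpoint kinase known as MPS1, had values of 10.09 before transfection, 10.12, 9.81, 9.50 and 8.83 after miR-16, and 10.21, 9.95, 9.88 and 9.73 after miR-CTR, with a late logFC of −0.64 ± 0.055. BUB1, which loads the checkpoint onto kinetochores, had 12.24 before transfection, 12.38, 12.27, 11.83 and 11.24 after miR-16, and 12.51, 12.26, 12.18 and 12.10 after miR-CTR, with −0.605 ± 0.024 late. In both genes the 2 late miR-16 libraries lay below all the others. PLK1, the polo-like kinase of mitotic entry and spindle formation, had 11.33 at 0 h, 11.94, 11.52, 11.14 and 11.05 in the miR-CTR libraries, and 11.99, 11.41, 10.90 and 10.26 in the miR-16 libraries, and just passed the threshold with −0.515 ± 0.034. AURKA, the kinase of centrosomes and spindle poles, did not, with −0.41 ± 0.028.

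NEK2, a kinase that separates the centrosomes, stood apart from the other kinases. Its values were 10.25 at 0 h, 10.28, 9.96, 9.76 and 9.99 in the miR-CTR libraries, and 10.46, 10.42, 10.13 and 9.63 in the miR-16 libraries. The miR-16 libraries were the higher ones up to 24 h, with logFC of 0.18, 0.46, and 0.37, and the 48 h library the lower one, with −0.36. The late mean of 0.005 ± 0.047 thus joins a higher and a lower value and describes neither.

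Among the genes of the spindle checkpoint, the APC/C, and separase, 2 of 8 were past −0.5 late (5.73% of all genes). At 48 h 5 were (8.96%). MAD2L1, which sequesters the APC/C activator CDC20, had values of 10.82 at 0 h, 10.95, 10.57, 10.45 and 10.45 in the miR-CTR libraries, and 10.74, 10.62, 10.20 and 9.65 in the miR-16 libraries, and a late logFC of −0.525 ± 0.043. CDC27, a subunit of the APC/C, had 12.00 at 0 h, 12.03, 11.80, 11.70 and 11.57 in the miR-CTR libraries, and 11.83, 11.60, 11.22 and 11.03 in the miR-16 libraries, with −0.51 ± 0.028 late. CDC27 differed from the typical course in that its logFC at 24 h, −0.48, was already close to that at 48 h, −0.54. It carries 2 miR-16 seed matches, as does RACGAP1, which had a late logFC of −0.455, and their part in the values was not tested. GENCODE lists 3 pseudogenes named after CDC27.

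BUB3 and PTTG1 were among the 5 members with the highest late logFC. BUB3, a partner of the checkpoint kinases with the longest 3′UTR of the members (6632 bases), had 11.67 before transfection, 11.78, 11.56, 11.38 and 11.09 after miR-16, and 11.67, 11.55, 11.42 and 11.29 after miR-CTR, and a late logFC of −0.12 ± 0.029. PTTG1 (securin, the inhibitor of separase) had 11.62 at 0 h, 11.76, 11.86, 11.81 and 11.54 in the miR-CTR libraries, and 11.96, 11.94, 11.86 and 11.27 in the miR-16 libraries, with −0.11 ± 0.026 late. For both, the 24 h libraries of the mimics lay within 0.05 of each other. Separase itself (ESPL1), which opens the cohesin rings, had −0.495, the checkpoint protein BUB1B −0.395, the APC/C activator CDC20 −0.21, and the ubiquitin-conjugating enzyme UBE2C −0.425. CDC20 stood at exactly −0.50 at 48 h, outside the threshold.

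The centromere and kinetochore genes held the most members past −0.5. These were 6 of 7 late (5.73% of all genes) and 7 of 7 at 48 h (8.96%). Of the 4 subunits of the NDC80 complex, which holds the microtubule ends, NUF2 had values of 9.74 at 0 h, 10.00, 9.78, 9.40 and 9.67 in the miR-CTR libraries, and 9.58, 9.78, 9.04 and 8.65 in the miR-16 libraries. SPC25 had 9.37 at 0 h, 9.59, 9.40, 9.22 and 8.89 in the miR-CTR libraries, and 9.38, 9.24, 8.81 and 8.02 in the miR-16 libraries, and SPC24 had 9.85 at 0 h, 9.85, 9.80, 9.58 and 9.49 in the miR-CTR libraries, and 9.76, 9.64, 9.38 and 8.56 in the miR-16 libraries. Their late logFC were −0.69 ± 0.061, −0.64 ± 0.072, and −0.565 ± 0.060, and that of NDC80 was −0.47 ± 0.050, which lies outside the threshold. The 4 subunits thus lay between −0.77 and −1.02 at 48 h. NUF2 was also low at 6 h, at −0.42, but at 12 h the mimics were equal.

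CENPA, the histone H3 variant that marks centromeres, had 9.86 before transfection, 9.78, 9.80, 9.14 and 8.73 after miR-16, and 9.96, 9.57, 9.51 and 9.54 after miR-CTR, and a late logFC of −0.59 ± 0.060. Its 12 h logFC was 0.23, the opposite sign to 24 and 48 h. CENPE, a kinesin that moves chromosomes to the spindle equator, had 11.27 before transfection, 11.27, 11.27, 10.94 and 10.50 after miR-16, and 11.51, 11.35, 11.22 and 11.26 after miR-CTR, with −0.52 ± 0.033 late. CENPF, a large kinetochore protein, had 13.06 before transfection, 13.43, 13.19, 12.85 and 12.16 after miR-16, and 13.54, 13.31, 13.21 and 12.97 after miR-CTR, with −0.585 ± 0.018 late. The late means of both stood within 0.03 of 0 h with miR-CTR and 0.55 or more below it with miR-16.

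The chromosomal passenger complex corrects wrong attachments and later prepares the cut. Of its genes, 3 of 4 passed −0.5 late (5.73% of all genes), each with a late logFC of −0.58. Its kinase AURKB had 11.06 at 0 h, 11.57, 11.22, 11.02 and 11.20 in the miR-CTR libraries, and 11.55, 11.08, 10.84 and 10.22 in the miR-16 libraries, with a counting SE of 0.035. The inhibitor-of-apoptosis family member BIRC5 (survivin) had 11.78 at 0 h, 12.13, 11.74, 11.43 and 11.45 in the miR-CTR libraries, and 12.02, 11.67, 11.09 and 10.63 in the miR-16 libraries, with a counting SE of 0.031. In AURKB the gap opened between 24 h (−0.18) and 48 h (−0.98), and BIRC5 was at −0.34 and −0.82. CDCA8 (borealin) had −0.405 ± 0.047, from −0.01 at 24 h and −0.80 at 48 h.

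INCENP, the scaffold of the same complex, reached its −0.58 by another route. Its values were 10.66 at 0 h, 11.39, 11.24, 11.20 and 11.36 in the miR-CTR libraries, and 11.38, 10.92, 10.80 and 10.60 in the miR-16 libraries. All 4 miR-CTR libraries stood above 0 h by 0.54 to 0.73, and the miR-16 libraries came back from 0.72 above 0 h at 6 h to 0.06 below it at 48 h. The late mean lay 0.62 above 0 h with miR-CTR and 0.04 above it with miR-16. It was the 1 member whose late miR-16 mean was not below 0 h.

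In the spindle assembly group 4 of 6 genes passed −0.5 late (5.73% of all genes) and 6 of 6 did at 48 h (8.96%). ASPM, a protein of the spindle poles, had 11.84 at 0 h, 12.33, 11.88, 11.93 and 12.04 in the miR-CTR libraries, and 12.05, 11.74, 11.33 and 11.09 in the miR-16 libraries, and a late logFC of −0.775 ± 0.027, the second lowest of the 45 genes. It and ANLN were the 2 members past −0.5 at 24 h, when 5.26% of all genes were. NUSAP1 and DLGAP5 bind and bundle spindle microtubules. NUSAP1 had 11.79 before transfection, 11.83, 11.81, 11.27 and 10.73 after miR-16, and 11.98, 11.86, 11.57 and 11.64 after miR-CTR, with −0.605 ± 0.029 late, and DLGAP5 had 11.73 before transfection, 12.04, 12.07, 11.61 and 11.07 after miR-16, and 12.14, 12.04, 11.89 and 11.93 after miR-CTR, with −0.57 ± 0.026. In GENCODE 62.2% of the exon bases of NUSAP1 are shared with the gene model AC087721.2 on the same strand, so that its count is uncertain. HMMR, a microtubule-binding protein of the spindle, had 10.50 at 0 h, 10.51, 10.29, 10.33 and 10.40 in the miR-CTR libraries, and 10.18, 10.31, 9.95 and 9.59 in the miR-16 libraries, with −0.595 ± 0.045 late. TPX2, which activates AURKA on the spindle, had −0.455, and TACC3, which bridges spindle fibres, −0.37.

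Cytokinesis held the gene with the largest fall. ANLN, which organises actin, myosin, and septins in the contractile ring, had 12.41 at 0 h, 12.65, 12.40, 12.18 and 12.08 in the miR-CTR libraries, and 12.36, 11.83, 11.27 and 10.58 in the miR-16 libraries. Its 4 miR-16 libraries fell at each step, and from 12 h on each of them lay below all 5 libraries without miR-16. Relative to miR-CTR the logFC was −0.29, −0.57, −0.91, and −1.50, and at 12 h ANLN was the 1 member past −0.5, where 2.53% of all genes were. At 6 h 0 members and 3.34% of all genes passed −0.5. The late logFC of −1.205 ± 0.028 stands at percentile 0.2 of all genes, and at 48 h the level was 0.354 of the control. ANLN carries the single 7mer-A1 match printed above.

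The other 3 cytokinesis genes stayed near the threshold. ECT2, the activator of RhoA at the equator, and PRC1, which crosslinks the microtubules of the central spindle, had late logFC of exactly −0.50, outside it, with −0.74 and −0.79 at 48 h. RACGAP1, of the centralspindlin complex, had −0.70 at 48 h. Both late miR-16 libraries of each of the 3 genes lay below the 5 libraries without miR-16. PRC1 shares 57.6% of its exon bases with the gene model AC068831.7 on the same strand and 7.3% with PRC1-AS1 on the other, so that its count is uncertain too.

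Among FOXM1, TOP2A, and MKI67 no gene passed −0.5 late, where 5.73% of all genes did. TOP2A, which untangles chromosomes, had 13.53 at 0 h, 13.49, 13.11, 12.92 and 12.84 in the miR-CTR libraries, and 13.65, 13.41, 13.05 and 12.56 in the miR-16 libraries. As in NEK2, miR-16 was higher at 6, 12, and 24 h, by 0.16, 0.30, and 0.13, and lower at 48 h, by −0.28. Its late logFC was −0.075 ± 0.017, and the late means differed from 0 h by −0.65 with miR-CTR and by −0.725 with miR-16. MKI67 (Ki-67, the coat of mitotic chromosomes and a common marker of cycling cells) had 12.55 before transfection, 13.34, 12.64, 12.45 and 11.72 after miR-16, and 13.21, 12.87, 12.66 and 12.29 after miR-CTR, with −0.39 ± 0.021 late. FOXM1, a transcription factor of G2 and M phase genes, had −0.26 ± 0.029, with 0.27 at 6 h, 0.04 at 24 h, and −0.56 at 48 h.

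**Figure D2:**
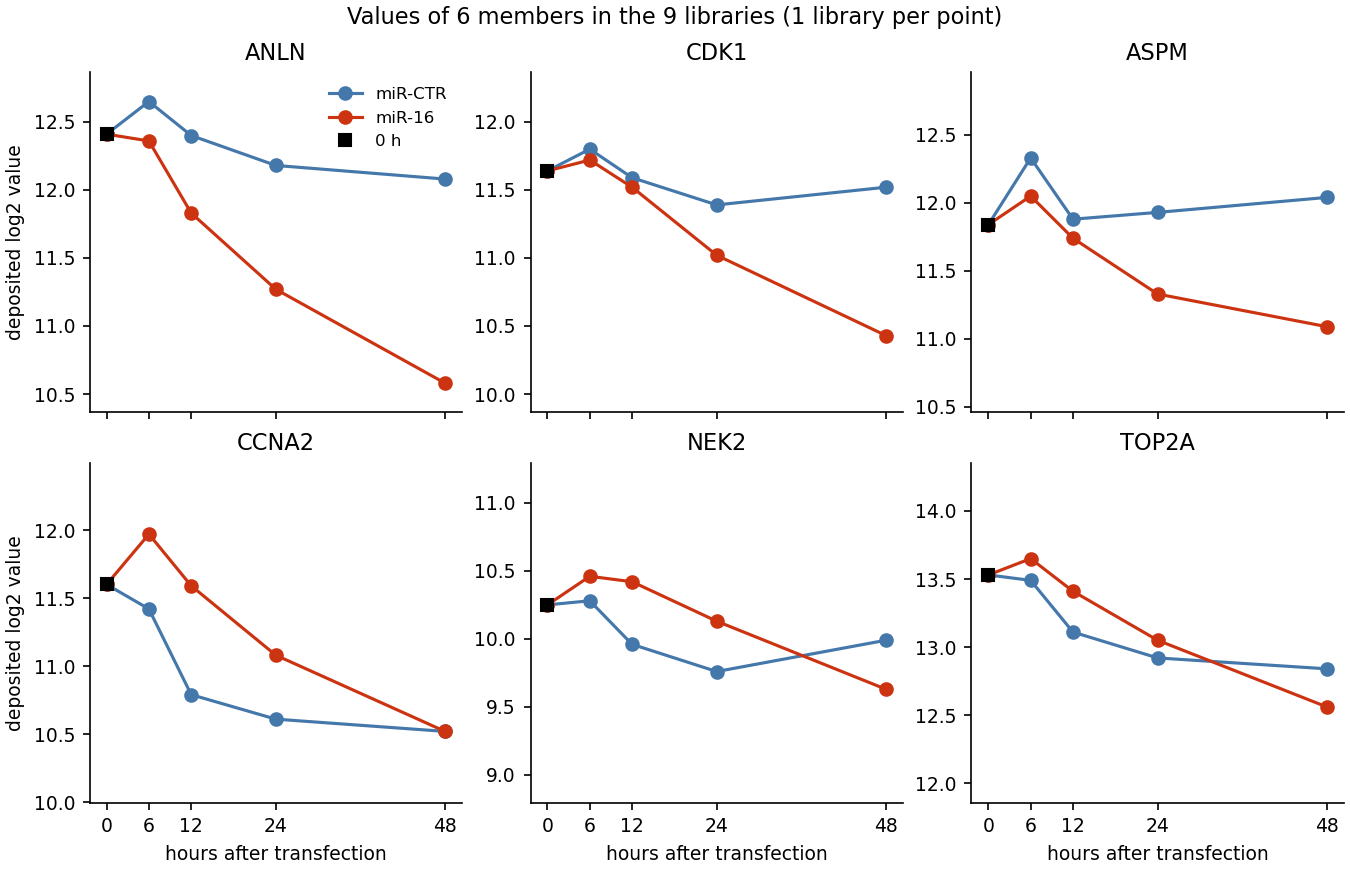
Deposited log2 value of 6 genes against the hours after transfection, with 1 library per point, the 0 h library as a square, miR-CTR in blue, and miR-16 in red. All panels span the same range of the log2 scale. ANLN, CDK1, and ASPM with miR-16 lie below miR-CTR at each time, whereas CCNA2, NEK2, and TOP2A with miR-16 lie above it until 24 h and not at 48 h.

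**Figure D3:**
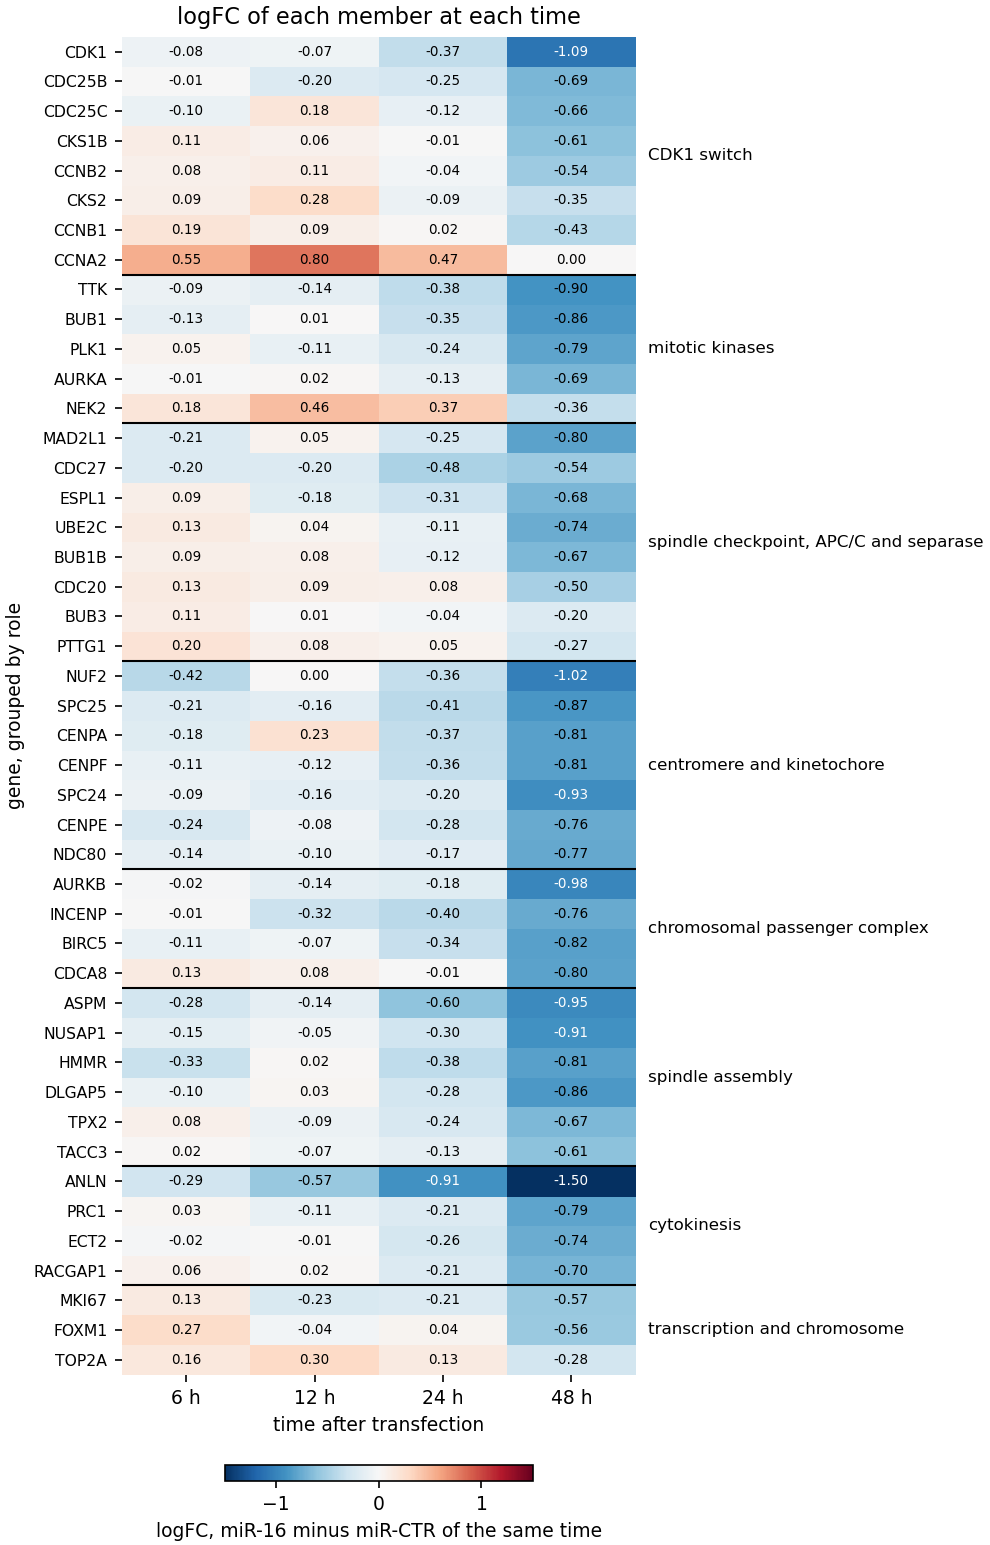
Heat map of the logFC (miR-16 minus miR-CTR of the same time, log2 scale) of the 45 genes at 6, 12, 24, and 48 h, grouped by role and ordered within a group by the late logFC. Blue is lower with miR-16, and in the 48 h column all genes but CCNA2 are below 0.

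Around the threshold the members were closely spaced. CENPE (−0.52), PLK1 (−0.515), and CDC27 (−0.51) lay just inside it, and PRC1 (−0.50), ECT2 (−0.50), and ESPL1 (−0.495) just outside. With the counting error alone, the 95% interval of the late logFC lay below 0 in 43 of 45 genes and above 0 in 1 (CCNA2), and it held 0 for NEK2. Over all genes the shares were 30.3% and 29.6%. These intervals do not hold the variation between cultures.

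The wider mitotic programme was described with 134 further genes. Of these 40 had a late logFC below −0.5 and 0 above 0.5, against 5.73% and 7.76% of all genes, and their median was −0.335. By role, the late counts below −0.5 were 6 of 12 mitotic kinesins, 11 of 29 further centromere and kinetochore genes, 8 of 20 cohesin and condensin genes, 5 of 13 further genes of the CDK1 switch, 6 of 24 spindle and centrosome genes, 3 of 8 cytokinesis genes, 1 of 10 other G2 and M genes, and 0 of 18 further checkpoint and APC/C genes. The last 2 of these counts, 1 of 10 and 0 of 18, are near or below the share over all genes. The lowest were CDC25A, the phosphatase of the G1 and S phase CDKs (−1.21), the microtubule-associated TACC1 (−1.195), and WEE1, the kinase that holds CDK1 inactive (−1.055). OIP5 and CENPW at the centromere had −0.93 and −0.82, the kinesin KIF18B −0.785, CCNF (cyclin F) −0.78, and PKMYT1, which inhibits CDK1 as WEE1 does, −0.755. CDC25A, TACC1, and WEE1 already lay below −0.5 at 12 h, with −0.83, −0.75, and −0.54, as ANLN did, while KIF18B and PKMYT1 lay at −0.21 and −0.16 and then at −1.10 each at 48 h.

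The 52 S phase genes, which serve DNA replication, had 20 genes below −0.5 late and 0 above 0.5, beside the same shares of all genes, and a median of −0.465. By time their medians were −0.03, −0.10, −0.185, and −0.72, beside −0.01, −0.01, −0.21, and −0.74 for the mitosis and cytokinesis genes.

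**Figure D4:**
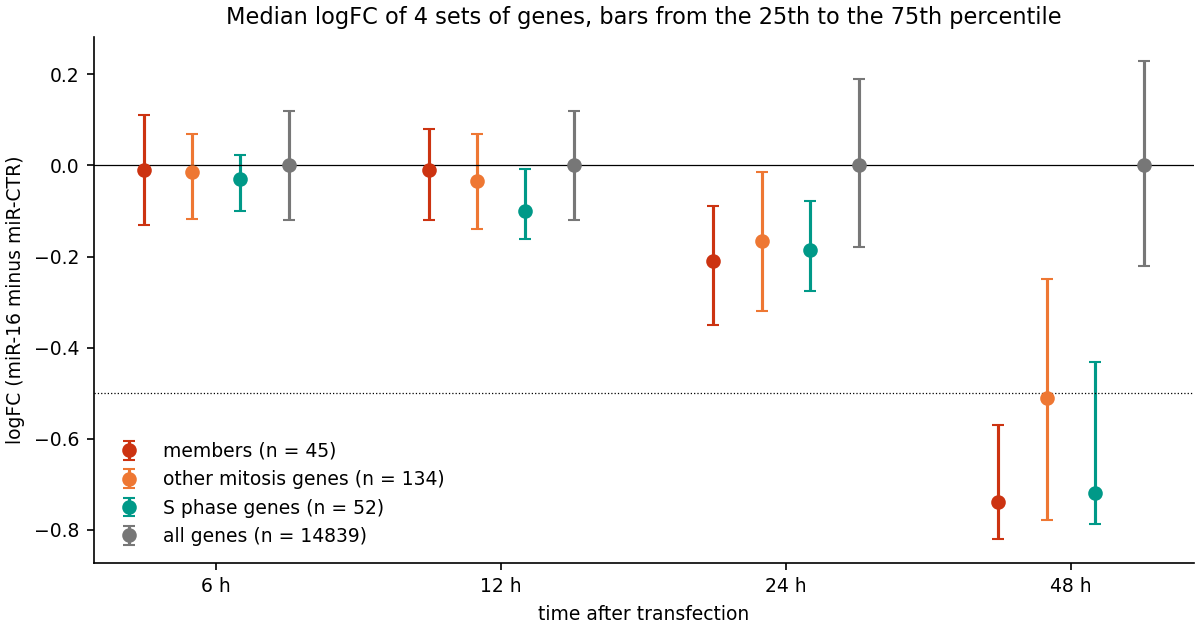
Median logFC (points) and the range from the 25th to the 75th percentile (bars) at 6, 12, 24, and 48 h for the 45 members, 134 other mitosis genes, 52 S phase genes, and all 14839 genes. The dotted line is the threshold of −0.5, and the median of the members goes from −0.01 at 6 h to −0.74 at 48 h while that of all genes is at 0.00.

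Promoters of late cell cycle genes are known for the CHR, an element bound by MuvB complexes with DP and E2F in resting cells or with B-MYB and FOXM1 in G2, and for CCAAT boxes bound by NF-Y. The promoters of the members were read for both elements, and the part of these elements in the values was not tested. RefSeq windows from 250 bases before to 50 bases after the start (GRCh38.p14) covered 37 of the 45 genes with 47 promoters. A CHR was TTTGAA or TTCGAA and a CCAAT box CCAAT, both on either strand, and the 2 can share end bases. A CHR was found in 28 of 37 genes (75.7%), against 15.5% of the 9599 genes with values in the table, 16.4% of all its 35116 promoters, 53.6% of 112 other mitosis genes, and 9.1% of 44 S phase genes. CCAAT was found in 31 of 37 genes (83.8%), against 43.7% of the genes with values and 34.6% of all promoters. Among other mitosis genes it was found in 58.9%, and among S phase genes in 59.1%. Both were present in 24 genes (64.9%), against 6.6% and 6.4%. The shares with both were 32.1% of other mitosis genes and 4.5% of S phase genes.

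Counted once in each promoter that held it, there were 44 CHR matches, of which 31 lay within 60 bases of the start, with a median position of −25.5. The 83 CCAAT matches had a median position of −85.0. Where promoters of a gene overlap, a site is counted in each, and positions over all promoters of the table were not counted. The late logFC had a median of −0.508 in the 28 genes with a CHR and −0.37 in the 9 without, with ranges from −1.205 to −0.075 and from −0.58 to 0.235. For CCAAT the medians were −0.50 in the 31 genes with and −0.495 in the 6 without. A match is not a bound site, and no match says only that these letters were not in this window. The windows below, read along the gene, are those of members whose values are given above. A single element per window is in capitals. The windows of HMMR and ANLN hold another CHR match in lower case. That of MKI67 holds a CCAAT match that begins at the last base of its CHR. The CHR in capitals of CCNB2, PLK1, CDC25C, and HMMR lies 25 to 27 bases before a start. From another start of CDC25C the same site lies 46 bases after it.
CCNB2, chr15:59105105-59105134, forward strand: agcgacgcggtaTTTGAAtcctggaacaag
PLK1, chr16:23678848-23678877, forward strand: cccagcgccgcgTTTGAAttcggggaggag
CDC25C, chr5:138331817-138331846, reverse strand: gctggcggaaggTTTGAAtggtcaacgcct
HMMR, chr5:163460592-163460621, forward strand: aatgtggggagaTTTGAAtttgaaaccggt
BUB1, chr2:110678045-110678074, reverse strand: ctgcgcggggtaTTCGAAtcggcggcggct
CENPA, chr2:26786026-26786055, forward strand: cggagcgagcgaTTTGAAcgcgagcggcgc
ANLN, chr7:36389830-36389859, forward strand: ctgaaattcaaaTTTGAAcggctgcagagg
MKI67, chr10:128126435-128126464, reverse strand: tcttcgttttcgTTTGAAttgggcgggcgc
CCNA2 had no CHR by these letters and 1 CCAAT box, on the other strand.
CCNA2, chr4:121823922-121823951, reverse strand: gcgagcgctttcATTGGtccatttcaatag

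**Figure D5:**
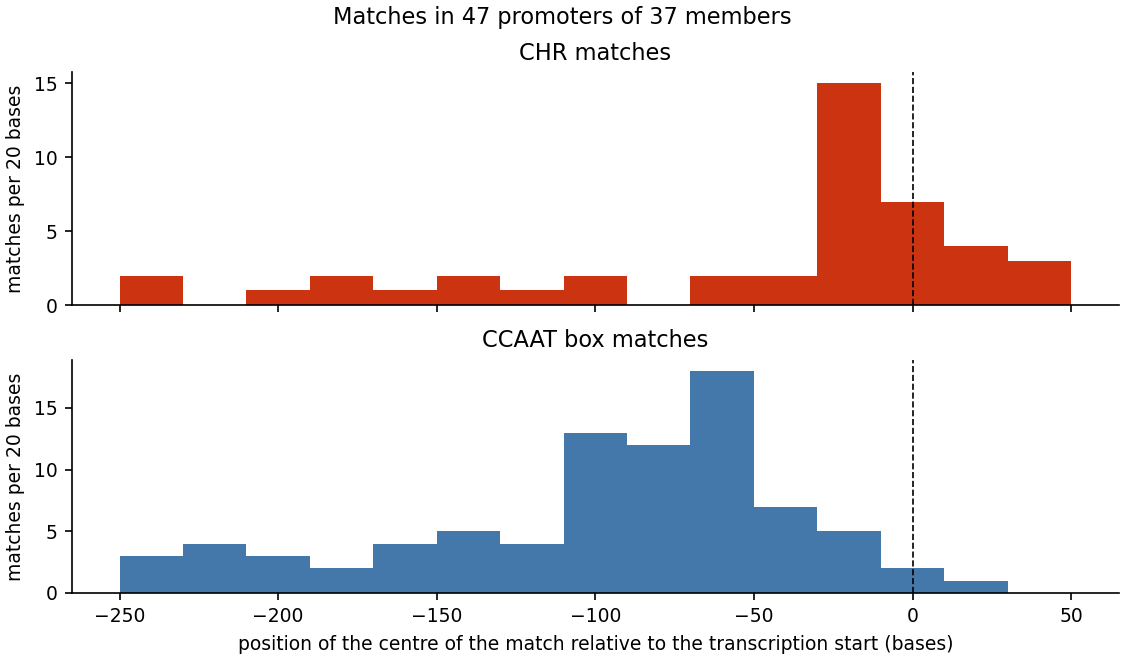
Number of CHR matches (top) and CCAAT matches (bottom) per 20 bases in the 47 promoters of 37 members, against the position of the centre of the match from the transcription start in bases. CHR matches crowd just before the start (median −25.5), and CCAAT matches lie further out (median −85.0).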

How the data were processed

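The authors deposited normalised log2 values of polyA RNA sequencing with 2 decimals and decimal commas, 1 per gene and library. The submitters' processing notes name FastQC, STAR 2.4.0a, featureCounts of Subread 1.5.0-p3, and GRCh38 (hg38). Each value was taken as log2(reads / size factor + 1), because in each library 100% of the values worth 15 reads or fewer came out as whole reads (within 0.1 read) of a single step, which lay between 0.853 and 1.148. Dividing by the step recovered the reads and, by the delta method, the counting errors, which leave out the variation between cultures. The columns carry time numbers and not hours. They were matched to the hours in increasing order.

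The logFC was the miR-16 minus the miR-CTR value of the same time, with 0.5 in size (not reached by −0.50 itself) as the threshold. The late window was the mean of 24 and 48 h. There was 1 library for each condition, and hence no p-value. The counting and calling steps were tested on simulated data. Genes, lists, and the naming rule were chosen with earlier results of these data known. Each member was named, and its 9 values were given where its late logFC passed the threshold, was the largest of its role, or was among the 5 highest or 5 lowest, where it passed at 6 or 12 h, and for TOP2A and MKI67. Of the other mitosis genes the 8 largest late calls were named, WEE1 and CDC25A among them. Gene models came from GENCODE version 29 (GRCh38), promoters and the miRNA from RefSeq (GRCh38.p14), the latter without 8 members (AURKA, BIRC5, BUB3, FOXM1, RACGAP1, TPX2, TTK, and UBE2C). The alternatives were another threshold, 3 other scalings, a pseudocount of 16, a filter on the lowest 25% of expression, single times, other references, and other site definitions. Scripts ran in Python 3.11.15 with numpy 2.4.6, pandas 2.3.3, and scipy 1.17.1, and figures were drawn with matplotlib 3.10.9.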

Additional observations from a re-analysis of the deposited data

Results flagged for a closer look

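In 3 of the 45 genes the logFC at 12 and 48 h had opposite signs, both beyond 0.25 in size. The 48 h minus the 12 h logFC was −0.82 in NEK2, −0.63 in CKS2, and −0.58 in TOP2A. Each gene was higher with miR-16 at 12 h and lower at 48 h. With 1 library per time the difference between the times was not tested. The 3′UTRs of NEK2 and TOP2A, but not that of CKS2, hold a match to the seed of the control sequence, and its part in these values was not tested.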

How the results depend on the processing

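With a threshold of 1.5-fold, 11 members, 26 other mitosis genes, and 9 S phase genes were below it late (4.04% of all genes). At 24 h alone 2 members, 9 other mitosis genes, and 1 S phase gene lay below −0.5 (5.26% of all genes), and at 48 h alone 37, 68, and 36 did (8.96%). Both times at once gave 2, 6, and 1 (2.78%). With 0 h as the reference there were 33, 76, and 41 (11.7%), and with the mean of the 4 miR-CTR libraries 35, 61, and 37 (6.69%). The count of 20 S phase genes was 12 after quantile normalization, when 6.75% of all genes lay below −0.5. Above 0.5 lay 1 other mitosis gene at 24 h alone (7.24% of all genes), and 1 against the mean of the miR-CTR libraries (8.93%). The median late logFC of the members was −0.21 at 24 h alone, −0.74 at 48 h alone, −0.665 against 0 h, and −0.65 against the mean of the miR-CTR libraries. Of the late logFC of single genes that passed the threshold, that of INCENP changed sign, to 0.04 against 0 h. An 8mer as the only site left 0% of members, against 5.0% of the 11570 genes with a 3′UTR. CCAAT boxes on the gene strand alone left 54.1% of the 37 genes with a promoter, against 25.6% of the 9599 genes with values. The cause of these shifts was not tested beyond the change of time, threshold, reference, or site itself. Median centring, quantile normalization, and counts per 1000000 reads turned the sign of no member's late logFC. Each condition was 1 culture, so that the differences hold for these libraries, and neither cell numbers nor cell cycle phases were measured in them.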
